A study of Caenorhabditis elegans with 47 samples.

Results

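The 8 genes described here, dpy-4, dpy-5, dpy-13, dpy-17, rol-6, sqt-1, sqt-2 and sqt-3, encode cuticle collagens of Caenorhabditis elegans and are named for the body shapes their mutants show. They were chosen by name, with earlier results of these data known. Each of the 8 had a probe set that the platform annotation assigns to that gene alone, out of 17118 genes with such a probe set. Where a gene had more than 1, the probe set with the highest mean was used, which applied to sqt-3 only.

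RNA of whole worms was measured on 47 Affymetrix arrays, 15 of worms that express Abeta, the amyloid beta peptide of Alzheimer's disease, 16 of worms that express GFP::degron, a fluorescent protein carrying a degradation signal, and 16 of worms that express GFP. All worms were raised at 16 °C to early in the third larval stage and then shifted to 25 °C. They were collected at the shift (T0) and at 4 h intervals to 20 h (T20). Each strain was sampled once at T0, T4 and T20 and with 4 repeats at T8 and at T16, while T12 has 4 repeats of Abeta, 5 of GFP::degron and 5 of GFP. The sources used here do not give the promoter and cell type that drive the transgenes, the marker genes the strains carry or the number of lines behind each strain. The arrays of a strain and time are biological repeats per the labels.

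The cuticle of a nematode is a collagen matrix secreted by the epidermis and made anew at each larval stage, with the old cuticle shed at the molt. Collagen genes are transcribed in a wave once per stage and in a set order, with the furrow collagens such as dpy-7 early in the wave and collagens such as col-12 late. Each procollagen is hydroxylated and folded in the endoplasmic reticulum, trimmed by proteases that include BLI-4 at the amino end and DPY-31 at the carboxyl end, and cross-linked after secretion. Loss of a dpy collagen makes the worm short and stout, and certain alleles of rol-6 and the sqt genes twist the cuticle into a helix so that the animal rolls.

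All levels below are log2(intensity + 1), so 1 unit is a doubling of signal. One array, GFP T8 replicate 3, had a median intensity of 20.3, against 60.1 to 108.7 on the other 46, and was left out of the tests; results with it put back are given for the called members that lose their call. The probe sets for dpy-4, dpy-13 and sqt-3 sat near the bright end of every array, with median percentiles of 99.8, 99.9 and 99.7 among all probe sets other than controls. Their medians were 0.16, 0.04 and 0.28 log2 units below the array's own 99.9 percentile, whereas dpy-17 sat at percentile 61.8. How far the signals of such bright probe sets are compressed was not tested. The probe sets of dpy-4, dpy-13 and sqt-3 are of the type that can bind related sequences, and those of dpy-5 and sqt-1 of the type shared between transcripts, so signal from related collagens cannot be told apart in them. In whole worms, fewer epidermal cells and less RNA per cell cannot be told apart either.

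**Figure D1:**
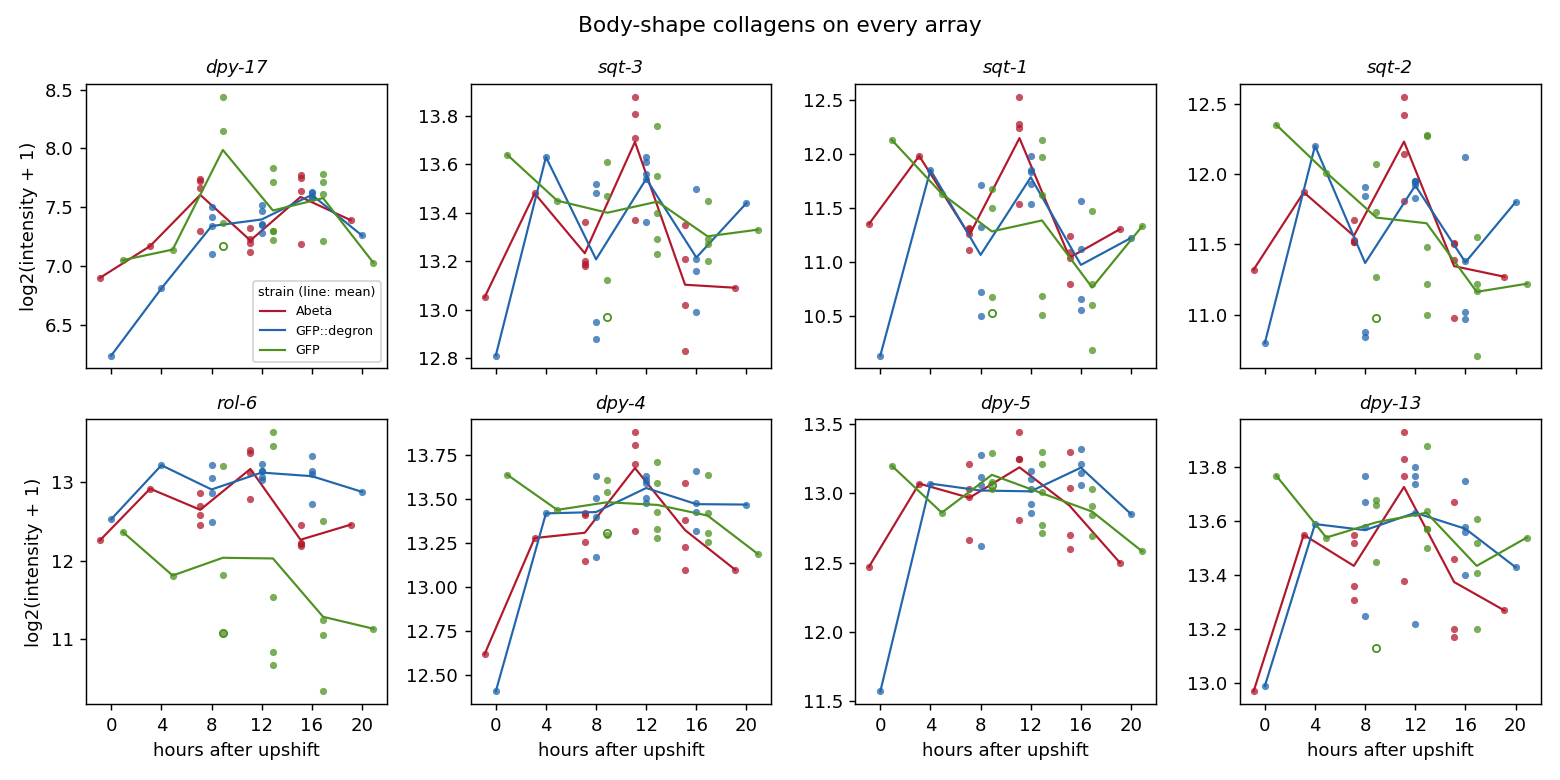
Level of each body-shape collagen, log2(intensity + 1), against hours after the temperature shift, with a scale of its own in each panel. Points are arrays, set apart sideways by strain (Abeta left, GFP::degron middle, GFP right), lines join means, and the open circle is the dim array GFP T8 replicate 3; sqt-1, sqt-2 and sqt-3 are lower at T16 than at T12, and rol-6 is lower in most GFP arrays.

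The question for each gene was when in the 20 h it was most expressed. Averaged over the strains, dpy-4, dpy-5, dpy-13, rol-6 and sqt-3 were highest at T12, sqt-1 and sqt-2 at T4 with T12 next, and dpy-17 at T8 with T16 next. The whole span between the highest and the lowest of the 6 means was small for most of them: 0.39 for sqt-3, 0.42 for dpy-13, 0.62 for rol-6, 0.65 for dpy-5, 0.68 for dpy-4, 0.73 for sqt-2, 0.90 for sqt-1 and 0.91 for dpy-17. The order depended on the strain. In Abeta worms 7 of the 8 members were highest at T12, all but dpy-17. In GFP::degron worms rol-6, sqt-1, sqt-2 and sqt-3 were highest at T4, dpy-4 and dpy-13 at T12, and dpy-5 and dpy-17 at T16, but with arrays centred on their medians all but dpy-17 were highest at T4 and none at T12. In GFP worms 7 of the 8 were highest on the single T0 array, again all but dpy-17, which was highest at T8. Under quantile normalization 3 members rather than 5 were highest at T12 on average, with arrays centred on their medians 2, and in Abeta worms quantile normalization put dpy-13 and sqt-1 highest at T4.

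The squat genes had the clearest course. Mutants of sqt-1 and sqt-3 are dumpy or roll depending on the allele, and sqt-2 mutants can roll too. The strain-averaged sqt-1 level was 11.20 at T0, 11.82 at T4, 11.20 at T8, 11.77 at T12, 10.92 at T16 and 11.28 at T20. That is a high at T4, a dip at T8, a second high at T12 and a second dip at T16. The means of sqt-2 followed the same path at 11.49, 12.03, 11.54, 11.93, 11.29 and 11.43. So did those of sqt-3, at 13.17, 13.52, 13.28, 13.56, 13.21 and 13.29. The furrow collagen dpy-7 had the same 2 highs, with means of 10.13, 10.35, 9.80, 10.57, 9.03 and 9.19. The first high rests on 3 single arrays at T4 and did not pass the test on either side for any of these genes. The means of the sqt genes had both highs in Abeta and GFP::degron worms, but no high at T4 in GFP worms. There sqt-1 ran 12.13, 11.63, 11.28, 11.38, 10.76 and 11.33, and sqt-2 ran 12.35, 12.01, 11.69, 11.65, 11.16 and 11.22.

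The second high passed for sqt-1 and sqt-3. In Abeta worms sqt-1 read 12.24, 12.28, 12.53 and 11.53 at T12, against 11.11, 11.30, 11.26 and 11.31 at T8. In GFP::degron worms it read 11.85, 11.98, 11.83, 11.72 and 11.53 at T12, against 11.32, 11.71, 10.72 and 10.50 at T8. In GFP worms it read 10.51, 12.13, 11.97, 10.68 and 11.62 at T12, against 11.67, 10.67 and 11.50 at T8. The T12 arrays of Abeta lay above all of its T8 arrays, the GFP::degron groups overlapped slightly, and all 3 GFP arrays of T8 lay inside the wide range of T12. Averaged over strains, sqt-1 was higher at T12 than at T8 by 0.57 ± 0.184 (SE), 1.49-fold (limma, Benjamini-Hochberg adjusted p = 0.0264), and 12 of 14 T12 arrays lay above their strain's T8 mean. For sqt-3 the T12 arrays ran between 13.23 and 13.88 with a median of 13.56, against 12.88 to 13.61 with a median of 13.20 at T8, and the difference was 0.28 ± 0.0871 (adjusted p = 0.0228). sqt-2 differed by 0.39 ± 0.161 (adjusted p = 0.0722). In all 22.7% of the 17118 genes changed at this step, 10.3% higher and 12.4% lower, and of the 8 members 2 were higher and 1 lower. Among the 9710 genes with a mean level of at least 6, tested alone, 1755 were higher and 650 lower. The 2 higher calls depended on single arrays and on the scaling. Without GFP T8 replicate 2, sqt-1 differed by 0.47 (adjusted p = 0.0855) and sqt-3 by 0.23 (adjusted p = 0.0739), and without GFP::degron T8 replicate 4 sqt-1 differed by 0.51 (adjusted p = 0.0551). Under quantile normalization sqt-1 differed by 0.50 (adjusted p = 0.0554), and with arrays centred on their medians sqt-3 differed by 0.29 (adjusted p = 0.0553).

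All 3 squat genes fell after T12. In Abeta worms sqt-1 read 11.09, 11.03, 11.24 and 10.79 at T16, below every one of the T12 arrays given above. In GFP::degron worms it read 11.56, 10.55, 10.65 and 11.12 at T16, and in GFP worms 11.47, 10.18, 10.60 and 10.79. There 1 of 4 GFP::degron arrays and 3 of 4 GFP arrays of T16 lay inside the range of T12. Averaged over strains sqt-1 fell by 0.85 ± 0.179 (SE), 1.80-fold (limma, adjusted p = 0.000254), and was lower on 11 of 12 T16 arrays. sqt-2 read 11.39, 11.51, 11.50 and 10.98 at T16 in Abeta worms, against 12.42, 12.14, 12.55 and 11.81 at T12. It fell by 0.64 ± 0.156, 1.56-fold (adjusted p = 0.00118). sqt-3 read 13.02, 13.21, 13.35 and 12.83 at T16 in Abeta worms, against 13.71, 13.88, 13.81 and 13.37 at T12, and fell by 0.35 ± 0.0846, 1.28-fold (adjusted p = 0.000993). These 3 averaged calls held in 53 of 53 alternative settings, which include leaving out each of the 46 arrays.

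**Figure D2:**
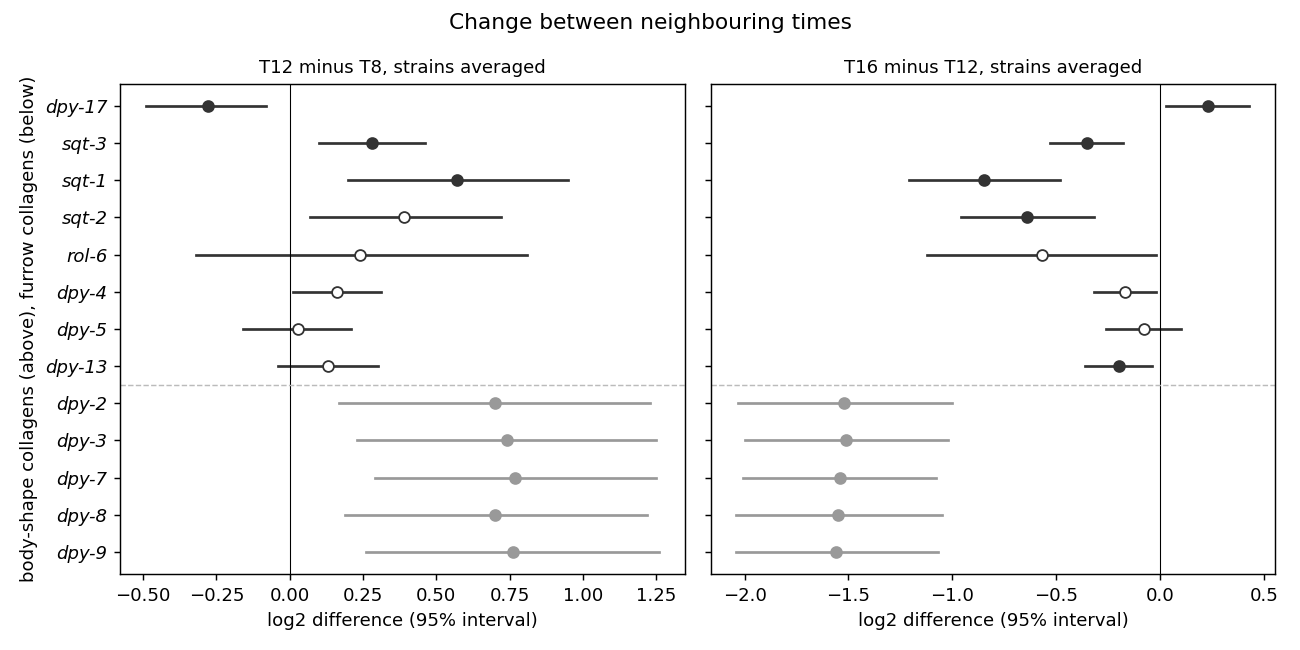
Change in log2(intensity + 1), averaged over the strains, of the 8 body-shape collagens and of 5 furrow collagens, T12 minus T8 at left and T16 minus T12 at right, with 95% intervals; the horizontal scales differ. Filled points passed an adjusted p of 0.05, and dpy-17 is the only gene of the 13 below 0 at the first step and above 0 at the second.

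Within single strains the fall passed in Abeta worms only, where sqt-1 fell by 1.1 ± 0.32 (limma, adjusted p = 0.0156), sqt-2 by 0.88 ± 0.28 (adjusted p = 0.0257) and sqt-3 by 0.59 ± 0.152 (adjusted p = 0.00729). In that strain 18.9% of all genes changed, 9.28% lower. rol-6 differed there by -0.91, more than sqt-2 and sqt-3, and did not pass. The T16 and T12 arrays of that strain did not overlap in these 3 genes or in rol-6. The share of all genes without overlap was not computed. Without Abeta T12 replicate 3 sqt-1 (adjusted p = 0.062) and sqt-2 (adjusted p = 0.0902) lost their calls. sqt-2 also lost it without Abeta T12 replicate 1 (adjusted p = 0.0651), without Abeta T16 replicate 4 (adjusted p = 0.0826) and with GFP T8 replicate 3 put back (adjusted p = 0.0697). In GFP::degron worms sqt-1 differed by -0.81 ± 0.304 (adjusted p = 0.077) and in GFP worms by -0.62 ± 0.304 (adjusted p = 0.107), with 10.3% and 36.3% of all genes changed, and no member passed. At an unadjusted p under 0.05 there were 3 members in GFP::degron and 1 in GFP. A test of strain by time over T8, T12 and T16 called none of the 8 members, and none had an unadjusted p under 0.05 (lowest adjusted p 0.611), with 0.175% of all genes called. The falls are therefore not shown to differ between the strains.

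The T12 minus T8 step passed in no member within a single strain. Unadjusted p was under 0.05 for 6 members in Abeta, 3 in GFP::degron and 1 in GFP, and 0.286%, 2.24% and 0.234% of all genes were called. In GFP worms sqt-1, sqt-2 and sqt-3 differed by 0.10 ± 0.331, -0.04 ± 0.289 and 0.05 ± 0.157.

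dpy-17, averaged over strains, moved opposite to the squat genes at the steps from T8 to T16. The dpy-17 and sqt-3 collagens interact genetically with each other and with the protease gene dpy-31. The dpy-17 means were 6.73, 7.04, 7.64, 7.36, 7.59 and 7.23 over T0 to T20. In Abeta worms it read 7.32, 7.12, 7.23 and 7.20 at T12, against 7.30, 7.72, 7.74 and 7.66 at T8. In GFP worms it read 7.30, 7.83, 7.71, 7.22 and 7.30 at T12, against 7.37, 8.44 and 8.15 at T8. In GFP::degron worms the T12 values of 7.28 to 7.52 lay inside or just above the T8 values of 7.10 to 7.50. Averaged, dpy-17 was higher at T8 than at T4 by 0.60 ± 0.16 (limma, adjusted p = 0.047), lower at T12 than at T8 by 0.28 ± 0.0994 (adjusted p = 0.04) and higher at T16 than at T12 by 0.23 ± 0.0966 (adjusted p = 0.0469). Each of the 3 calls lay close to the threshold. They held in 22, 36 and 28 of 53 alternative settings, and their direction held in all. With the replicate block the T8 minus T4 difference was 0.39 (adjusted p = 0.32), and with arrays centred on their medians the T16 minus T12 difference was 0.11 (adjusted p = 0.388). Within strains the T12 minus T8 difference was 0.06 ± 0.164 in GFP::degron and -0.52 ± 0.179 in GFP (adjusted p = 0.904 and 0.176). With GFP T8 replicate 3 put back none passed, with adjusted p of 0.586, 0.214 and 0.13. At the T8 minus T4 step 1.57% of all genes were called, 1.45% higher, and dpy-17 was the only member called. That split was 248 genes higher and 21 lower, and 259 and 69 with arrays centred on their medians.

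The remaining dumpy collagens changed less than the squat genes on the deposited scale. DPY-5 and DPY-13 are collagens of the annuli, the ridges between the furrows, and dpy-4 encodes a further collagen needed for normal body length. dpy-13 ran between 13.17 and 13.75 with a median of 13.49 at T16, against 13.22 to 13.93 with a median of 13.69 at T12, and was lower at T16 by 0.20 ± 0.0793, 1.15-fold (limma, adjusted p = 0.0336). The 2 ranges overlapped almost wholly, and the call was lost without 9 of the 46 arrays in turn, Abeta T12 replicate 2 (adjusted p = 0.0653) among them, and with GFP T8 replicate 3 put back (adjusted p = 0.104). The size depended on the scaling: under quantile normalization dpy-13 differed by -0.59 (adjusted p = 0.00114), and with arrays centred on their medians by -0.32 (adjusted p = 0.00395). dpy-4 ran between 13.10 and 13.66 at T16, against 13.28 to 13.88 at T12, a difference of -0.17 ± 0.0727 (adjusted p = 0.0534). Under quantile normalization it differed by -0.37 (adjusted p = 0.00931) and with arrays centred on their medians by -0.28 (adjusted p = 0.00609), and it passed in 11 of 53 alternative settings. dpy-5 ran between 12.60 and 13.32 at T16, against 12.71 to 13.44 at T12, a difference of -0.08 ± 0.09 (adjusted p = 0.46), which was -0.17 (adjusted p = 0.0459) under quantile normalization. rol-6 differed by -0.57 ± 0.269 (adjusted p = 0.0776). At this step 51.6% of the 17118 genes changed, 27.2% higher and 24.4% lower. Of the 8 members 5 changed, 1 higher and 4 lower, but 0 higher and 6 lower under quantile normalization and with arrays centred on their medians. The split of all genes was 4656 higher and 4175 lower, but 3194 and 5442 under quantile normalization and 3582 and 5662 with arrays centred on their medians. Among the 9710 genes with a mean level of at least 6, tested alone, 1850 were higher and 3768 lower. The median change was -0.28 over the members, 0.07 over all genes and -0.11 over those 9710.

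The first and last steps rest on single arrays. At T4 minus T0 all 8 members had a higher average, by 0.26 to 0.61, and none passed, with 2 at an unadjusted p under 0.05 and 0.993% of all genes called. Leaving out GFP T0 or GFP T4 brought 2 members, dpy-4 and dpy-5, past the threshold. The strains moved in opposite directions. In Abeta worms all 8 were higher at T4, by 0.28 to 0.66, and in GFP::degron worms all 8 were higher, by 0.56 to 1.72. In GFP worms 7 were lower, by 0.19 to 0.56, and dpy-17 differed by 0.09. The GFP::degron T0 array had the lowest median intensity of the 46, 60.1, and held the lowest value of dpy-4, dpy-5, dpy-17, sqt-1 and sqt-3; the part of this brightness was not tested, and the same 8, 8 and 7 directions were found under quantile normalization and with arrays centred on their medians. With that centring the GFP::degron differences were smaller, at 0.13 to 1.28, with 0.17 in dpy-13 and 0.26 in rol-6. At T20 minus T16 no member passed, 2 had an unadjusted p under 0.05, dpy-5 at -0.34 ± 0.147 and dpy-17 at -0.37 ± 0.158 (limma, adjusted p = 0.226 each), and 1.46% of all genes were called.

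**Figure D3:**
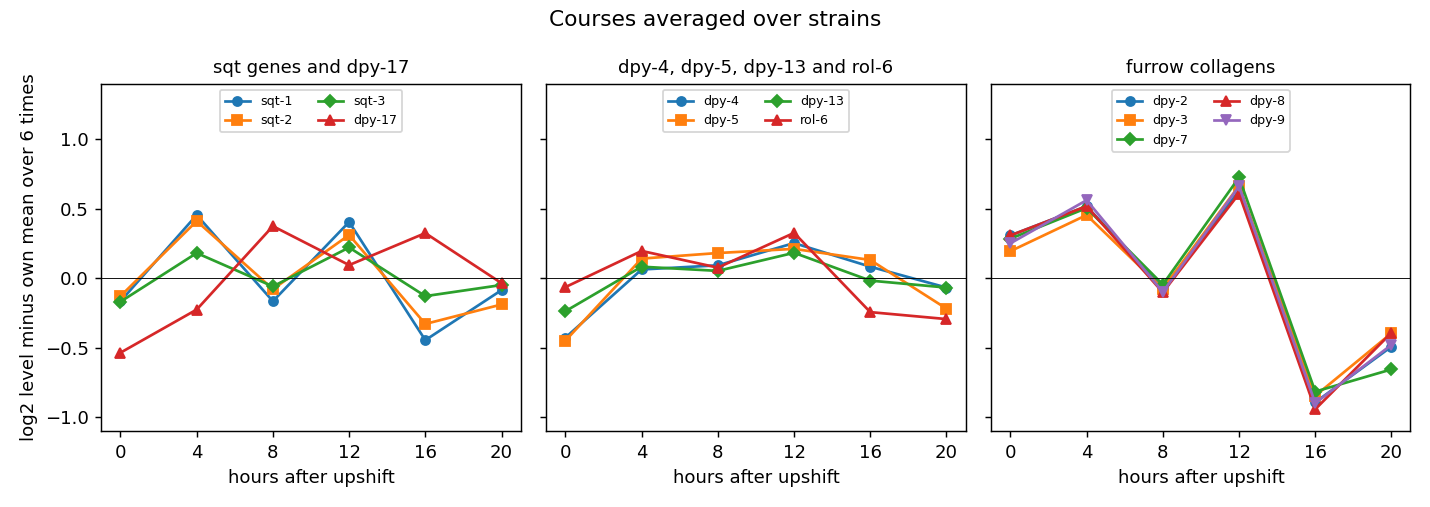
Mean level over the strains minus the gene's own mean over the 6 times, in log2 units, against hours after the shift, for the sqt genes with dpy-17, for dpy-4, dpy-5, dpy-13 and rol-6, and for 5 furrow collagens. The sqt genes and the furrow collagens dip at T8 and T16, where dpy-17 is high.

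rol-6 was the member that differed between strains. ROL-6 is a collagen of the same structural family as SQT-1, and the 2 genes interact in mutants. A dominant allele of rol-6 is also a common visible marker in transgenic strains. The sources used here do not say whether these strains carry it, and the probe set cannot tell copies of a marker from the native gene. In Abeta worms rol-6 read 12.58, 12.45, 12.70 and 12.87 at T8, 13.12, 13.37, 13.41 and 12.79 at T12, and 12.45, 12.19, 12.22 and 12.21 at T16. In GFP::degron worms it read 13.06, 13.22, 12.50 and 12.86 at T8, 13.14, 13.24, 13.07, 13.15 and 13.03 at T12, and 13.34, 12.72, 13.15 and 13.11 at T16. In GFP worms it read 11.82, 11.08 and 13.21 at T8, 10.67, 13.64, 13.46, 10.83 and 11.54 at T12, and 11.24, 10.33, 11.05 and 12.51 at T16. The Abeta and GFP::degron arrays stayed within 12.19 to 13.41, while the GFP arrays spread from 10.33 to 13.64 and held both the lowest and the highest values of the series.

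Averaged over T8, T12 and T16, the GFP::degron level of rol-6 exceeded that of GFP by 1.26 ± 0.277 (SE), 2.39-fold (limma, adjusted p = 0.00142), with all 13 GFP::degron arrays above the GFP mean of their time. At T16 it was higher by 1.80 ± 0.483, 3.48-fold (adjusted p = 0.00795), where the median of all genes was higher by 0.13. The arrays of the 2 strains did not overlap there, and the share of all genes without overlap was not computed. Both calls held in 53 of 53 alternative settings, with ranges of 1.1 to 1.45 and 1.48 to 2.21. The fit assumes the same spread for a gene in all groups, so these SE do not reflect a strain's own spread. Over all 16 arrays of each strain the SD of rol-6 was 1.023 in GFP and 0.25 in GFP::degron worms. These SD cover T0 to T20 and the dim GFP array, so they mix change over time with the spread of repeats. In this pair 24.5% of all genes changed on average over the times, 15.2% higher in GFP::degron, and 22.1% at T16, 14.5% higher. rol-6 was 1 of 8 members called in each, so the members as a set did not exceed the share of all genes. The split of all genes was 2595 higher and 1597 lower on average and 2480 and 1299 at T16; with arrays centred on their medians it was 2101 and 2004, and 1920 and 1676. At T8 and T12 no member passed, with 1 at an unadjusted p under 0.05 each and 1.29% and 0.0701% of all genes called. The T8 one was dpy-17, lower in GFP::degron by 0.65 ± 0.187 (adjusted p = 0.0759).

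In Abeta worms rol-6 differed from GFP by 0.92 ± 0.282 on average (limma, adjusted p = 0.059), with 12 of 12 Abeta arrays above the GFP mean of their time. It did not pass, and passed in 7 of 53 alternative settings. No member was called in this pair, with 2 at an unadjusted p under 0.05 and 3.94% of all genes called on average; at T8, T12 and T16 the members at an unadjusted p under 0.05 numbered 0, 3 and 1, with 0.0%, 0.0935% and 2.42% of all genes called. Abeta and GFP::degron worms differed in rol-6 by -0.34 ± 0.274 (95% interval -0.90 to 0.22, adjusted p = 0.556). No member was called in that pair, none at an unadjusted p under 0.05 on average or at T8, T12 or T16, with 3.22%, 0.111%, 0.333% and 0.123% of all genes called. GFP::degron and GFP worms thus differed in rol-6, and neither comparison with Abeta passed.

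**Figure D4:**
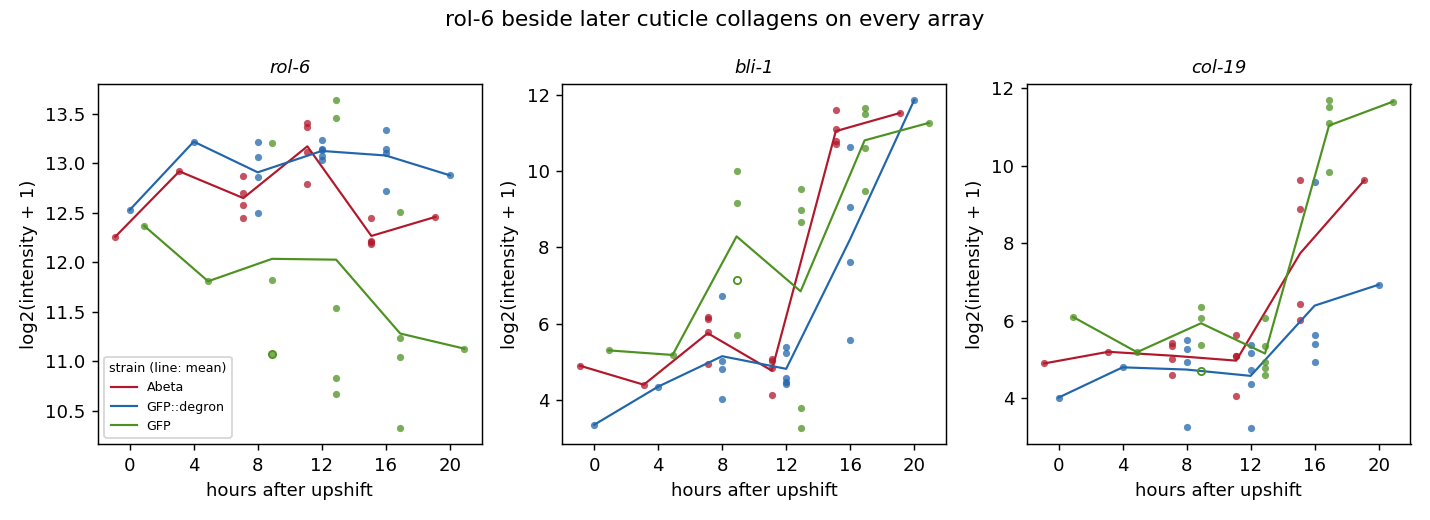
Levels of rol-6 and of the later cuticle collagens bli-1 and col-19, log2(intensity + 1), against hours after the shift, with points for arrays (Abeta left, GFP::degron middle, GFP right) and lines for means. At T16 the GFP arrays are highest in col-19 and mostly lowest in rol-6, and at T12 the 2 GFP arrays lowest in bli-1 are those highest in rol-6.

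Marks of stage differed between GFP::degron and GFP worms too. BLI-1 is a collagen of the struts of the adult cuticle and COL-19 a collagen of the adult stage. At T16 col-19 read 5.64, 9.58, 5.40 and 4.94 in GFP::degron worms, against 9.83, 11.69, 11.50 and 11.11 in GFP worms. Over T8 to T16 the averaged difference was -2.14 ± 0.439 in col-19 (limma, adjusted p = 0.000766) and -2.59 ± 0.624 in bli-1 (adjusted p = 0.003). Of the 6 later cuticle and adult marks measured 5 were lower in GFP::degron, and of the 9 germline and yolk marks 7, beside 9.33% of all genes. The lists overlap, as the yolk genes vit-2 and vit-6 are in both, and they were chosen with earlier results of these data known. The other later marks are bli-1, bli-2, col-19 and the late collagen col-12. At T16 the summed intensity of the 6 ran from 10672 to 18466 in Abeta and from 9580 to 16278 in GFP::degron worms, against 15319 to 36238 in GFP worms. That of the 9 ran from 5445 to 21407 in Abeta and from 1445 to 14779 in GFP::degron worms, against 22333 to 47822 in GFP worms. The sum of the 6 contains the bright col-12, so it does not measure adult marks alone. The col-12 means at T16 were 12.94 in Abeta, 13.24 in GFP::degron and 13.13 in GFP worms, in log2 units. At T12 bli-1 read 3.80 and 3.27 on GFP replicates 2 and 3, which were high in rol-6, and 9.52, 8.66 and 8.99 on the other 3, which were low. At T8 GFP replicate 4 was high in rol-6 with bli-1 at 9.15. In Abeta worms at T16 bli-1 read 10.70 to 11.59 with rol-6 at 12.19 to 12.45. The T16 means of bli-1 were 11.04 in Abeta, 8.22 in GFP::degron and 10.80 in GFP worms. Those of bli-2 were 10.79, 8.39 and 10.42, and those of col-19 were 7.74, 6.39 and 11.03, in the same order. The T16 means of rol-6 were 12.27, 13.08 and 11.28. The part of stage in the rol-6 difference was not tested.

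How far the members vary together between repeats was measured by the correlation of their deviations from group means, over 37 arrays of the 9 groups with repeats. The 28 pairs ran from 0.00 to 0.92 with a median of 0.60. The arrays of a group share brightness and stage, so these values are a description. The highest was between sqt-1 and sqt-2, at 0.92, and sqt-3 followed them at 0.83 and 0.85. A second group was dpy-4, dpy-5 and dpy-13, with 0.86 between dpy-4 and dpy-5, 0.85 between dpy-4 and dpy-13 and 0.83 between dpy-5 and dpy-13. sqt-3 also went with dpy-13, at 0.84. rol-6 went with sqt-1 at 0.70 and with sqt-2 at 0.65, and with the dumpy genes at 0.27 to 0.41. dpy-17 had 0.00 to 0.45 with every other member. Over the 18 strain and time means it went with dpy-5 at 0.66, dpy-4 at 0.61 and dpy-13 at 0.43, and with rol-6 and the sqt genes at -0.11 to 0.19. Beyond the set, rol-6 went with the protease gene dpy-31 at 0.70 and with dpy-7 at 0.66, and bli-1 ran against sqt-2 at -0.67.

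**Figure D5:**
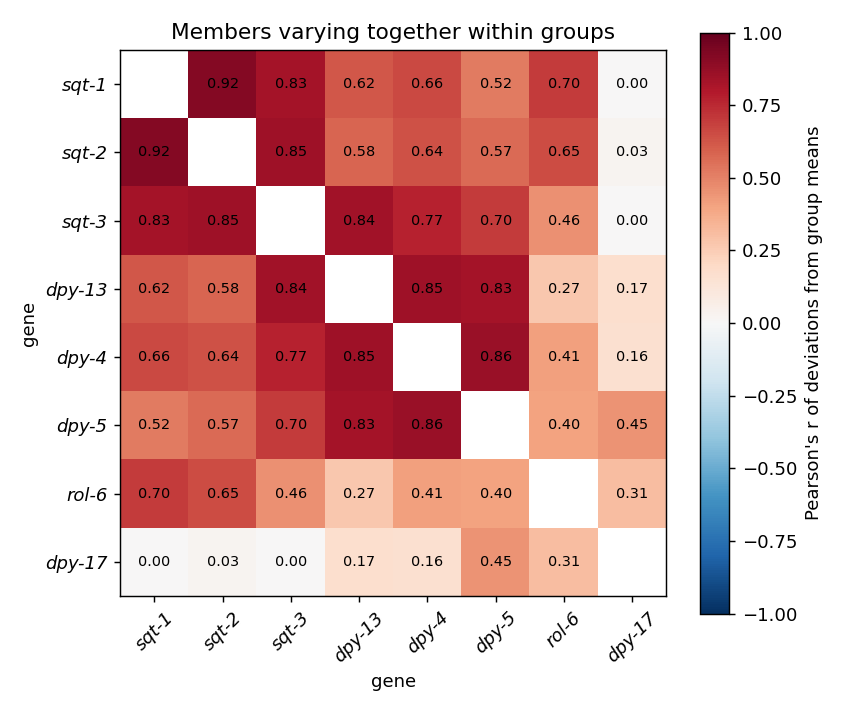
Pearson's r between body-shape collagens of deviations from the strain and time means over 37 arrays, without a diagonal. The sqt genes form one block of high values, dpy-4, dpy-5 and dpy-13 another, and dpy-17 has at most 0.45 with any other.

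The genes whose 18 strain and time means were most like each member's were searched over 9710 genes with a mean level of at least 6, by Pearson's r. For sqt-1 they were dbd-8 (0.943), dbd-9 (0.942) and dtmk-1 (0.932). For sqt-2 they were glf-1 (0.940), rol-8 (0.937) and T10H10.2 (0.937), and for sqt-3 bus-5 (0.927), sqt-2 (0.914) and ptr-18 (0.908). For dpy-4 they were col-73 (0.938), dpy-13 (0.933) and cel-1 (0.914), for dpy-5 F36H9.5 (0.963), col-114 (0.944) and col-173 (0.941), and for dpy-13 dpy-4 (0.933), C06G1.1 (0.929) and ptr-18 (0.915). Another member was thus among the 3 for dpy-4, dpy-13 and sqt-3. For rol-6 the values were lower, at 0.867 for his-2, 0.861 for T08B1.4 and 0.860 for M03F4.6. For dpy-17 they were 0.909 for ndub-6, 0.888 for set-21 and 0.884 for Y47G6A.22, none of which led for another member.

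Against the furrow collagens the members moved less at the 2 tested steps. All 5 furrow collagens measured, dpy-2, dpy-3, dpy-7, dpy-8 and dpy-9, were higher at T12 than at T8, by 0.70 to 0.77, and all 5 were lower at T16 than at T12, by 1.51 to 1.56. Their median change at T16 minus T12 was -1.54, against -0.28 over the members. dpy-7 fell by 1.54 ± 0.226 (limma, adjusted p = 2.23e-06). The difference between the 2 lists was not tested, and both were chosen with earlier results of these data known. col-12, a late collagen, moved the other way at the second step, higher by 0.32 ± 0.0858 (adjusted p = 0.00272).

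Some genes of a list of procollagen processing and cross-linking, which also holds nas-37 of the molt, were called at the same 2 steps. The list was chosen with earlier results of these data known, so its counts are a description. Of 17 genes of procollagen processing and cross-linking 7 were higher and none lower at T12 against T8, with a median of 0.20, beside 10.3% and 12.4% of all genes and a median of -0.06. Among the 9710 genes with a mean level of at least 6, 1755 were higher and 650 lower, with a median of 0.07. The largest were nas-37, an astacin protease of the molt, at 0.86 ± 0.223 (limma, adjusted p = 0.00855) and dpy-18, a prolyl 4-hydroxylase subunit, at 0.69 ± 0.131 (adjusted p = 0.000857). dpy-31 was higher by 0.43 ± 0.127 (adjusted p = 0.0169), while bli-4 differed by 0.22 ± 0.111 (adjusted p = 0.147), phy-3 by -0.21 ± 0.223 (adjusted p = 0.5) and nas-36 by -0.25 ± 0.131 (adjusted p = 0.159). At T16 against T12, 10 of the 17 were lower and 1 was higher, with a median of -0.40, beside 24.4% and 27.2% of all genes and a median of 0.07. Among those 9710 genes 3768 were lower and 1850 higher, with a median of -0.11. nas-37 fell by 1.33 ± 0.217 (adjusted p = 9.7e-06), dpy-31 by 0.82 ± 0.123 (adjusted p = 3.29e-06) and dpy-18 by 0.40 ± 0.127 (adjusted p = 0.01). phy-3, a further prolyl 4-hydroxylase gene, was the one that was higher, by 1.09 ± 0.216 (adjusted p = 0.000117). fkb-4 differed by 0.14 ± 0.0908 (adjusted p = 0.193).

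So were some regulators of the molting cycle, on a list likewise chosen with earlier results of these data known. Of 9 genes 4 were higher and none lower at T12 against T8, beside 10.3% and 12.4% of all genes, with a median of 0.12. The 4 include lin-29, higher by 1.00 ± 0.154 (limma, adjusted p = 0.000124), lin-42 by 0.65 ± 0.216 (adjusted p = 0.031) and nhr-23, a nuclear receptor needed for molting, by 0.46 ± 0.162 (adjusted p = 0.0408). elt-3 differed by -0.07 ± 0.135 and the dim grh-1 by -0.25 ± 0.367, with adjusted p of 0.719 and 0.636. At T16 against T12, 8 of 9 were lower, beside 24.4% of all genes, with a median of -0.81, and grh-1 differed by -0.14 ± 0.357 (adjusted p = 0.767). myrf-1 fell by 1.47 ± 0.172 (adjusted p = 1.1e-07), lin-29 by 1.19 ± 0.15 (adjusted p = 3e-07) and nhr-23 by 0.81 ± 0.158 (adjusted p = 0.000102). All 6 later cuticle and adult marks were higher at T16 than at T12, bli-1 by 4.54 ± 0.606 (adjusted p = 6.27e-07) and col-19 by 3.49 ± 0.426 (adjusted p = 2.06e-07), and so were 8 of 9 germline and yolk marks, beside 27.2% of all genes. The yolk genes vit-2 and vit-6 count in both lists. Of the body-wall muscle marks unc-54 fell by 0.44 ± 0.106 (adjusted p = 0.00103) and myo-3 differed by -0.22 ± 0.115 (adjusted p = 0.114). The part of the higher germline and yolk RNA in the lower levels of the members was not tested.

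sqt-3 had a second probe set. With the mean of both, the T12 minus T8 difference was 0.17 (limma, adjusted p = 0.12) and did not pass, and the T16 minus T12 fall kept its call.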

How the data were processed

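The authors deposited 1 intensity per probe set and array on a linear scale, from Affymetrix Expression Console 1.1 as the submitters' processing notes say. How probes were summarised and arrays scaled to each other is not stated in the sources used here. Biotin-labelled cRNA was made from 5 µg of total RNA, per the labels' protocols.

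Of 22625 probe sets, 77 controls were left out and 20766 name 1 gene in the platform annotation. All 8 members matched the RefSeq gene table. Intensities were turned into log2(intensity + 1). limma 3.58.1 in R 4.3.3 fitted a mean to each of the 18 strain and time groups on 46 arrays (28 residual degrees of freedom). It adjusted p-values over 17118 genes by Benjamini-Hochberg, with a threshold of 0.05. T0, T4 and T20 have 1 array per strain, which is assumed to vary like the repeated groups. Errors of differences are SE. The fit was checked on simulated data. Figures were drawn with matplotlib 3.10.9, and tables made with pandas 2.3.3 and numpy 2.4.6 in python 3.11.15. The number of arrays limits the precision.

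The named genes are all members, 3 most alike genes per member, and in each list those with the 2 highest and the 2 lowest changes at the tested steps, plus 7 genes in any case; not all of them are printed. Members and lists were chosen with earlier results of these data known. dpy-10 and col-7 are not named alone by a probe set and were not analysed here. Sequences were not used here. Pairing of same-numbered repeats of a time was checked by the correlation of their deviations from group means, which ran from -0.33 to 0.54 over 35 pairs of arrays (median 0.19). All pairs were over 0.1 in 2 of 9 pairs of groups, Abeta with GFP at T8 (0.31 to 0.54) and at T16 (0.31 to 0.53). There the replicate block left 0 members called. That block gives each repeat number 1 effect shared by all strains and times, so it does not model pairing within a time. In the other 7 not all pairs were over 0.1, which does not show that they are unpaired. At T12 GFP with GFP::degron ran from 0.08 to 0.28 and GFP::degron with Abeta from -0.28 to 0.06. Alternatives were quantile normalization, centring on array medians, a pseudocount of 16, only genes with a mean of at least 6, the mean of all probe sets, the replicate block, the dim array put back, and leaving out each array.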

Additional observations from a re-analysis of the deposited data

Results flagged for a closer look

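Of 72 sets of 4 or 5 repeats of a member, 3 had an array farther from the rest than Dixon's criterion allows, where chance gives about 1 in 20. All were small. In Abeta at T16 replicate 1 rol-6 read 12.45, against 12.19 to 12.22 on the other arrays. In Abeta at T8 replicate 2 read 11.67 in sqt-2, against 11.52 to 11.53, and 13.36 in sqt-3, against 13.18 to 13.20.

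Between T0 and T4 every array of Abeta and GFP::degron moved up and that of GFP moved down in 7 members, on 1 array per strain and time, and the difference was not tested. The changes in GFP worms were -0.20 in dpy-4, -0.34 in dpy-5, -0.24 in dpy-13, -0.56 in rol-6, -0.50 in sqt-1, -0.34 in sqt-2 and -0.19 in sqt-3. The smaller of the changes in the other strains was 0.66, 0.61, 0.58, 0.66, 0.63, 0.55 and 0.43 in the same order.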

How the results depend on the processing

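No direction of a called member turned under any of the 53 alternatives. Counts of members called depended on them as follows, and the cause was not tested. T8 minus T4 gave 0 members in place of 1 with the dim array put back, quantile normalization, median centring, a pseudocount of 16 or the replicate block, and 0 to 1 with single arrays left out. T12 minus T8 gave 1 in place of 3 with median centring, and 0 to 5 with single arrays left out: 0 without GFP T8 replicate 2, 1 without GFP::degron T8 replicate 4 and 5 without Abeta T12 replicate 4. T16 minus T12 gave 3 in place of 5 with the dim array put back, and 3 to 6 with single arrays left out; it was 3 without GFP::degron T12 replicate 2, GFP::degron T16 replicate 3 or Abeta T12 replicate 2, Abeta T12 replicate 3 or Abeta T16 replicate 4. In Abeta alone T16 minus T12 gave 6 with quantile normalization and 5 with median centring in place of 3, and 1 to 5 with single arrays left out, with 1 without Abeta T12 replicate 3 and 5 without Abeta T12 replicate 4 or Abeta T16 replicate 3. From 0, quantile normalization gave 1 for T16 minus T12 in GFP (dpy-13), Abeta minus GFP gave 1 (rol-6) with quantile normalization, a pseudocount of 16 or the filter on dim genes, and GFP::degron minus GFP at T8 gave 1 (dpy-17) with quantile normalization, that filter or the replicate block. GFP::degron minus GFP gave 2 in place of 1 with the replicate block on average (dpy-17 added) and with quantile normalization at T16 (dpy-5 added). With single arrays left out the counts ran from 0 to 2 for T4 minus T0 and T16 minus T12 in GFP::degron, 0 to 3 for T12 minus T8 in Abeta, 0 to 1 for T12 minus T8 and T16 minus T12 in GFP, Abeta minus GFP averaged and GFP::degron minus GFP at T8, and 1 to 2 for GFP::degron minus GFP averaged. The count of members highest at T12 was 3 with quantile normalization, 2 with median centring, 2 in GFP::degron alone and 0 in GFP alone, in place of 5. The replicate block also brought dpy-4 past the threshold at T16 minus T12 (-0.19, adjusted p = 0.0353), and changed no other call of a member.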

Other observations

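Over the 15 GFP arrays without the dim one, the genes whose values went most with rol-6 among 9709 others were C02F4.4 (Pearson's r = 0.966), Y81G3A.4 (0.965), grl-15 (0.962), srlf-34 (0.954) and tep-1 (0.950). Without the 2 GFP arrays farthest from the median of rol-6 the values were 0.936, 0.933, 0.930, 0.915 and 0.910. These genes were found by searching the same arrays. Within the 15 Abeta arrays r was 0.881 for C02F4.4 and 0.870 for grl-15, and within the 16 GFP::degron arrays 0.797 and 0.792. It was -0.297 and -0.214 for srlf-34, and 0.076 and -0.253 for tep-1, in the same strains. The level of srlf-34 ran from 9.54 to 12.37 in Abeta and from 9.97 to 12.39 in GFP::degron worms, against 6.69 to 11.07 in GFP worms. That of grl-15, a gene of the groundhog-like family, ran from 10.71 to 12.46 in Abeta and from 10.01 to 11.96 in GFP::degron worms, against 9.72 to 12.15 in GFP worms.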
